A study of Mus musculus with 3 samples.

Results

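The genes described here are 41 named mouse genes of inflammatory signalling: the NF-κB subunits with their inhibitors and adaptors, the cytokines and chemokines they control, STAT and SOCS genes, cytokine receptors, and adhesion and acute-phase genes. Their chromatin was read by ATAC-seq, which marks accessible DNA by transposase insertion. A peak summit belonged to a gene when the nearest end of any protein-coding gene, within 50 kb, was an end of that gene. Of 67219 regions in the 3 libraries, 233 belonged to the 41 genes, and all 41 had at least 1. The gene names set the membership, and no measured value entered the rule, but the genes were chosen with earlier results of these data known. The libraries came from mouse mesenchymal stem cells in a study of heterotopic ossification, bone that forms outside the skeleton. One library was made before injury (day 0), 1 at day 7 after injury from cells labelled immobilized, and 1 at day 7 after injury from cells labelled non-immobilized. Strain, genotype, age, the kind of injury, how the cells were isolated and how many animals were pooled are absent from the labels used here. With 1 library per group there was no replicate check, so no test of a difference between conditions was possible and no p-value is given.

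NF-κB factors are dimers of Rel family proteins that are held inactive by IκB proteins and released when receptors for tumour necrosis factor, interleukin 1 or microbial products are engaged. Cytokines of the interleukin 6 family bind receptors that share the signal chain gp130 and activate STAT3, while SOCS proteins switch these receptors off again. Both pathways feed back on themselves, since genes for IκBα, A20 and SOCS3 are among their own targets. In injured tissue, fibroblasts and other mesenchymal cells use them to release chemokines that draw in leukocytes.

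The sequences of 6 promoters are shown because they hold a match to the κB or STAT motif and because the data bear on them: 5 lay under a region called in all 3 libraries and that of Cxcl2 lay under a region called in the day 7 libraries only. Each is the 250 bases before the gene start, 5′ to 3′ on the gene's strand, from RefSeq, build GRCm38.p6 (the assembly of mm10). Capitals mark motif matches on either strand.
Cxcl1 (chr5:90890995-90891244, plus strand): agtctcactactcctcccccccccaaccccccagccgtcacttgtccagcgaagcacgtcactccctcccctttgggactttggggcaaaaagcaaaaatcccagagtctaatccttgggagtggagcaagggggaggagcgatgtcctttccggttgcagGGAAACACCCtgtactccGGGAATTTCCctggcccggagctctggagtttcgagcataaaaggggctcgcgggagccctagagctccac
Cxcl2 (chr5:90903649-90903898, plus strand): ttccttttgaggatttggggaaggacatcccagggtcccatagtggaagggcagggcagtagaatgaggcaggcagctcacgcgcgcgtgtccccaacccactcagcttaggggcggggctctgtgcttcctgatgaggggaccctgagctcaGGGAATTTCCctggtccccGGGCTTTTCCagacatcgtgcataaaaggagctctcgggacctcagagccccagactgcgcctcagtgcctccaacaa
Il6 (chr5:30012864-30013113, plus strand): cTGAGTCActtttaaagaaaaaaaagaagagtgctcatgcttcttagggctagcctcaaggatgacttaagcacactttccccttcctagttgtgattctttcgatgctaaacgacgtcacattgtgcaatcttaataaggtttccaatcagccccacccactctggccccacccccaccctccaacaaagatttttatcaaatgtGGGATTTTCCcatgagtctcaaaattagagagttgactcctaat
Nfkbia (chr12:55492648-55492897, minus strand): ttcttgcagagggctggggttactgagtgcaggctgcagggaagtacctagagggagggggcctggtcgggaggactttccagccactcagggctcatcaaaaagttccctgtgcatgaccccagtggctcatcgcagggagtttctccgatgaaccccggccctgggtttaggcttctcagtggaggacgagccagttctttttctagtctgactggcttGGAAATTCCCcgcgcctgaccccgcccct
Tnfaip3 (chr10:19015411-19015660, minus strand): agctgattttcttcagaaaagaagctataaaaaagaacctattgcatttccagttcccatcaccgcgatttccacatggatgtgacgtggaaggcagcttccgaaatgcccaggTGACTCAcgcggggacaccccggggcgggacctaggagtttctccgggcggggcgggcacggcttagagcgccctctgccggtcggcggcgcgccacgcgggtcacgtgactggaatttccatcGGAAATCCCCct
Socs3 (chr11:117969367-117969616, minus strand): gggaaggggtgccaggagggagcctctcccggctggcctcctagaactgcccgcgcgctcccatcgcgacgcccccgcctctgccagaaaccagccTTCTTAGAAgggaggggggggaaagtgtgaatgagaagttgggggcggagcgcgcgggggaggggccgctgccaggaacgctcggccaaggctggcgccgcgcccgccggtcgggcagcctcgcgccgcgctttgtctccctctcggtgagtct

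The κB motif was searched as GGG, any 2 bases and TTTCC, the STAT motif as TTCNNNGAA and the AP-1 motif as TGANTCA, each on both strands. In the windows shown no match shared bases with another. Cxcl1 and Cxcl2, neighbouring genes for chemokines that attract neutrophils, each held 2 κB matches, starting 89 and 71 bases before the start of Cxcl1 and 97 and 78 bases before that of Cxcl2. The promoter of Il6, the gene for interleukin 6, held a κB match 44 bases before the start and an AP-1 match at 249 bases. Nfkbia, which encodes IκBα, had its κB match at 29 bases. Tnfaip3, which encodes the deubiquitinase A20, a brake on NF-κB, had a κB match at 12 bases and an AP-1 match at 136 bases. Socs3 had a STAT match at 154 bases, and the start used for it lies inside the span that the gene table gives.

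Of the 41 genes, 32 were in the RefSeq promoter table, whose windows run from 250 bases before to 50 after a start; Ccl2, Ccl7, Cxcl5, Nfkb1, Nfkbiz, Relb, Ripk2, Tlr4 and Vcam1 were not. A κB match stood in the windows of 9 of the 32 genes (28.1%), against 1.92% of the 16456 genes with a window. These 9 were Cxcl1, Cxcl2, Ifngr2, Il4ra, Il6, Nfkb2, Nfkbia, Rel and Tnfaip3. Many of the 41 genes are known as NF-κB targets, so this share describes the choice of genes. The STAT motif matched in 5 genes (Icam1, Irf1, Myd88, Nfkb2 and Socs3, 15.6%), against 9.05% of all genes. AP-1 matches stood in 6 (Il6, Lif, Nfkb2, Nfkbie, Osmr and Tnfaip3, 18.8%), against 8.23%. A match is a description of the letters and not a bound site.

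The libraries held 176119937 read pairs at day 0, 143818952 in the immobilized and 173029378 in the non-immobilized day 7 library. Duplicates made up 60.2%, 43.4% and 42.0% in that order. By alignment rate and duplicate fraction, at most 63.6 M, 75.3 M and 90.1 M pairs were aligned and not duplicates. Day 0 thus had the most read pairs but the fewest usable ones. The part of usable depth in regions missing at day 0 was not tested. The deposited lists held 51722, 67404 and 47912 summits in the same order of libraries. Counts and ranks below come from lists of equal length, the best 47912 summits of each library, unless said otherwise. The rank of a region is its place in a library's list in percent, where 0% is the best of the authors' scores. The lowest score kept differed, at 3.996, 6.61 and 1.33, so a region missing from a shortened list may still stand in the deposited one, and a region in neither is not shown to be closed chromatin. Of 12 markers of mesenchymal cells, 11 had a region, the exception being Tcf21, and the list had 59, 48 and 49 regions in the same order of libraries. Markers of other cells also had regions: 29, 35 and 63 over 10 endothelial genes, 9, 43 and 11 over 10 keratinocyte genes, 14, 19 and 20 over 15 myeloid genes, 10, 6 and 7 over 10 lymphoid genes, 38, 29 and 28 over 8 skeletal muscle genes, and 48, 34 and 37 over 8 smooth muscle and pericyte genes. The myeloid markers Itgam, Adgre1, Lyz2 and Ly6g and the lymphoid markers Cd3e, Cd3g, Cd8a, Cd79a, Ms4a1 and Ncr1 had no region in any library. The part of such cells in the results below was not tested. In bulk libraries, more cells of a type and more accessible chromatin per cell cannot be told apart.

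The 41 genes together had 151 regions at day 0, 177 in the immobilized and 173 in the non-immobilized day 7 library. All 3 libraries shared 114 of the 233 regions (48.9%, exact 95% interval 42.3 to 55.5), against 48.5% of the 51389 regions near any protein-coding gene. The share for the 41 genes was near that background. The plot of regions per gene shows the 3 counts of every gene.

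**Figure D1:**
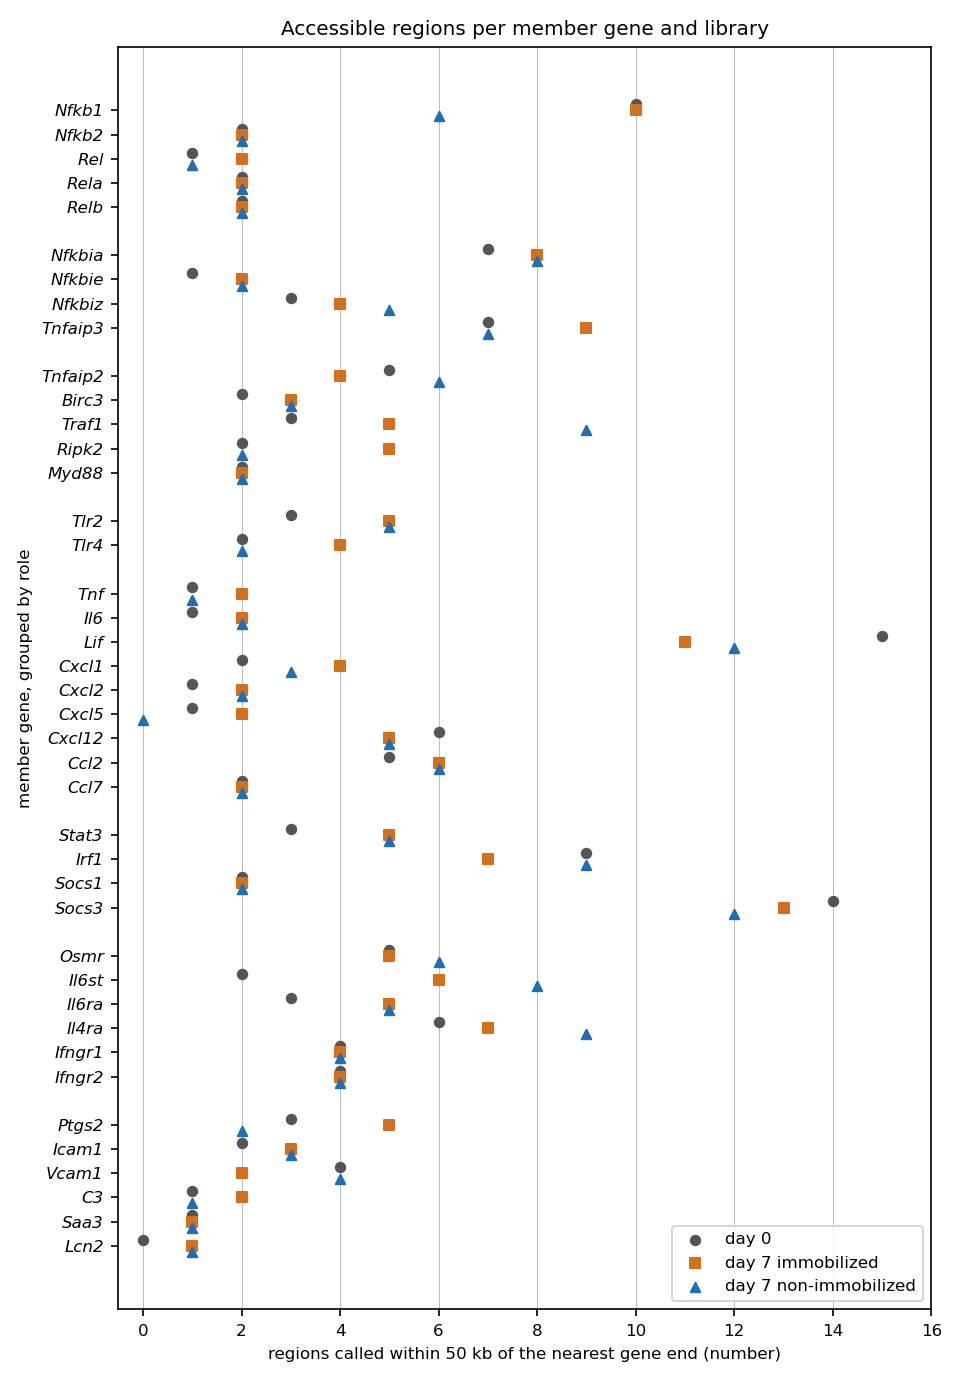
Regions called for each of the 41 genes (rows, grouped by role) in the equal-length list of each library (grey circles, day 0; orange squares, day 7 immobilized; blue triangles, day 7 non-immobilized); the horizontal axis is the number of regions. Traf1 and Il6st stand furthest to the right of their day 0 points, with 9 and 8 regions in the non-immobilized library against 3 and 2, while Lif (15 to 11 in the immobilized library) and Nfkb1 (10 to 6 in the non-immobilized library) stand furthest to the left of theirs.

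The genes for the 5 NF-κB subunits had the same regions in every library, with the exception of Nfkb1 and Rel. From here on, counts and ranks follow the order day 0, immobilized, non-immobilized. Nfkb2 (p100/p52), Rela (p65) and Relb had 2, 2 and 2 regions each, all shared. Rel, which encodes c-Rel, had 1, 2 and 1, the additional region of the immobilized library lying 9.46 kb from the nearest gene end at rank 44.2%. Nfkb1, which encodes p105/p50 (chr3:135584655-135691969, mm10), had 10, 10 and 6. Of its 15 regions 5 were shared by all libraries, 4 stood at day 0 alone, 4 in the immobilized library alone, 1 in the non-immobilized library alone and 1 at day 0 and in the immobilized library. The equal counts of 10 thus hide different regions, and none of the 4 regions at day 0 alone had a summit in either deposited day 7 list. The region nearest an end of Nfkb1, at 0.461 kb, was shared, at ranks 20.3%, 17.2% and 17.5%.

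The 4 genes for inhibitors of NF-κB had 18, 23 and 22 regions, 16 of 29 shared by all libraries. Nfkbia (chr12:55489409-55492647) had 7, 8 and 8 regions, 7 of them shared. Its promoter region ranked 14.6%, 15.9% and 12.8%. Nfkbie, which encodes IκBε, had 1, 2 and 2, and the region 1.91 kb inside the gene, at ranks 63.0% and 70.9%, was absent from the whole deposited day 0 list. Nfkbiz, which encodes the nuclear IκBζ, had 3, 4 and 5. Its shared region 10.8 kb inside the gene span ranked 8.37%, 7.72% and 3.40%. Tnfaip3 (chr10:19000910-19015410) had 7, 9 and 7, with its promoter region at 14.7%, 10.1% and 8.25%. A shared region 30.8 kb beyond the end where Tnfaip3 starts ranked 85.6% at day 0 and 49.3% and 38.6% in the day 7 libraries.

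Among adaptors and direct targets of NF-κB signalling, Traf1 differed most between day 0 and the non-immobilized library. Traf1, an adaptor of tumour necrosis factor receptors (chr2:34941750-34961812), had 3 regions at day 0, 5 in the immobilized and 9 in the non-immobilized library. Its promoter window, and regions 3.54 and 7.25 kb inside the gene, were called in both day 7 libraries and had no summit in the whole deposited day 0 list. The promoter region ranked 72.0% and 79.2%, the region at 3.54 kb 78.5% and 56.0%, and that at 7.25 kb 93.7% and 44.3%. Of the 4 regions called in the non-immobilized and not in the shortened immobilized list, 3 had a summit in the immobilized list as deposited, and the exception lay 4.66 kb inside the gene. Ripk2, a kinase that links NOD receptors to NF-κB, had 2, 5 and 2, and its 3 additional regions, 10.6, 35.3 and 36.1 kb from the gene end, were in the immobilized library only and had no summit in either other deposited list. Its region at the gene end was among the best of all lists, at ranks 0.0417%, 1.32% and 0.267%. Birc3, an inhibitor of apoptosis, had 2, 3 and 3, with its promoter region at 9.45%, 8.24% and 3.28%. Tnfaip2 had 5, 4 and 6. Myd88, the adaptor of Toll-like and interleukin 1 receptors, had 2, 2 and 2.

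The Toll-like receptor genes had 5, 9 and 7 regions. Tlr2, a receptor for bacterial lipoproteins, had 3, 5 and 5, and its regions 3.15 and 23.7 kb upstream of the start were in both day 7 libraries and absent from the whole day 0 list. Tlr4, the receptor for lipopolysaccharide, had 2, 4 and 2. Its additional regions in the immobilized library ranked 91.7% and 97.8%, near the end of that list.

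The 9 cytokine and chemokine genes had 34, 36 and 33 regions, and against day 0, the non-immobilized library had more at 4 of them, fewer at 3 and the same number at 2. In the immobilized library 6 had more, 2 fewer and 1 the same number. Among all genes with a region, 25.4% had more and 23.7% fewer in the non-immobilized library, and 26.7% and 22.7% in the immobilized library. Il6 (chr5:30013114-30019975) had 1, 2 and 2 regions. Its promoter region ranked 30.2%, 20.2% and 18.0%, and a second region 12.1 kb upstream, at 65.9% and 38.0%, was in both day 7 libraries and absent from the whole day 0 list. Cxcl1 had 2, 4 and 3, with the promoter region at 13.1%, 9.91% and 12.4%. Cxcl2 (chr5:90903899-90905938) had 1, 2 and 2 with none shared by all. Its promoter region was called at 53.0% and 50.4% in the day 7 libraries and had no summit in the whole day 0 list, while its single day 0 region, also called in the immobilized library, lay 5.25 kb downstream of the start. The 2 neighbouring chemokine genes with paired κB matches therefore differed at day 0, where a region was called over the promoter of Cxcl1 only. Cxcl5, which also encodes a neutrophil chemokine, had 1, 2 and 0, all at ranks of 71.9% or worse. Tnf had 1, 2 and 1, and its promoter region was weak in every library, at 65.7%, 95.3% and 84.6%.

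Lif, which encodes leukaemia inhibitory factor, an activator of STAT3 (chr11:4257568-4272514), had 15, 11 and 12 regions, and its 15 at day 0 were the most of the 41 genes in that library. Of its 18 regions 9 were shared, and 5 were at day 0 alone, at ranks from 63.7% to 91.3%. No region overlapped its promoter window in any library. Ccl2, the main monocyte chemokine gene, had 5, 6 and 6 with 5 shared, and the adjoining Ccl7 had 2, 2 and 2. Cxcl12, the ligand of CXCR4 that retains blood progenitors and is made by resting stromal cells, had 6, 5 and 5. The ranks of its region 33.9 kb upstream were 43.3%, 89.8% and 96.3%, while its promoter region stood at 40.9%, 27.96% and 23.8%.

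**Figure D2:**
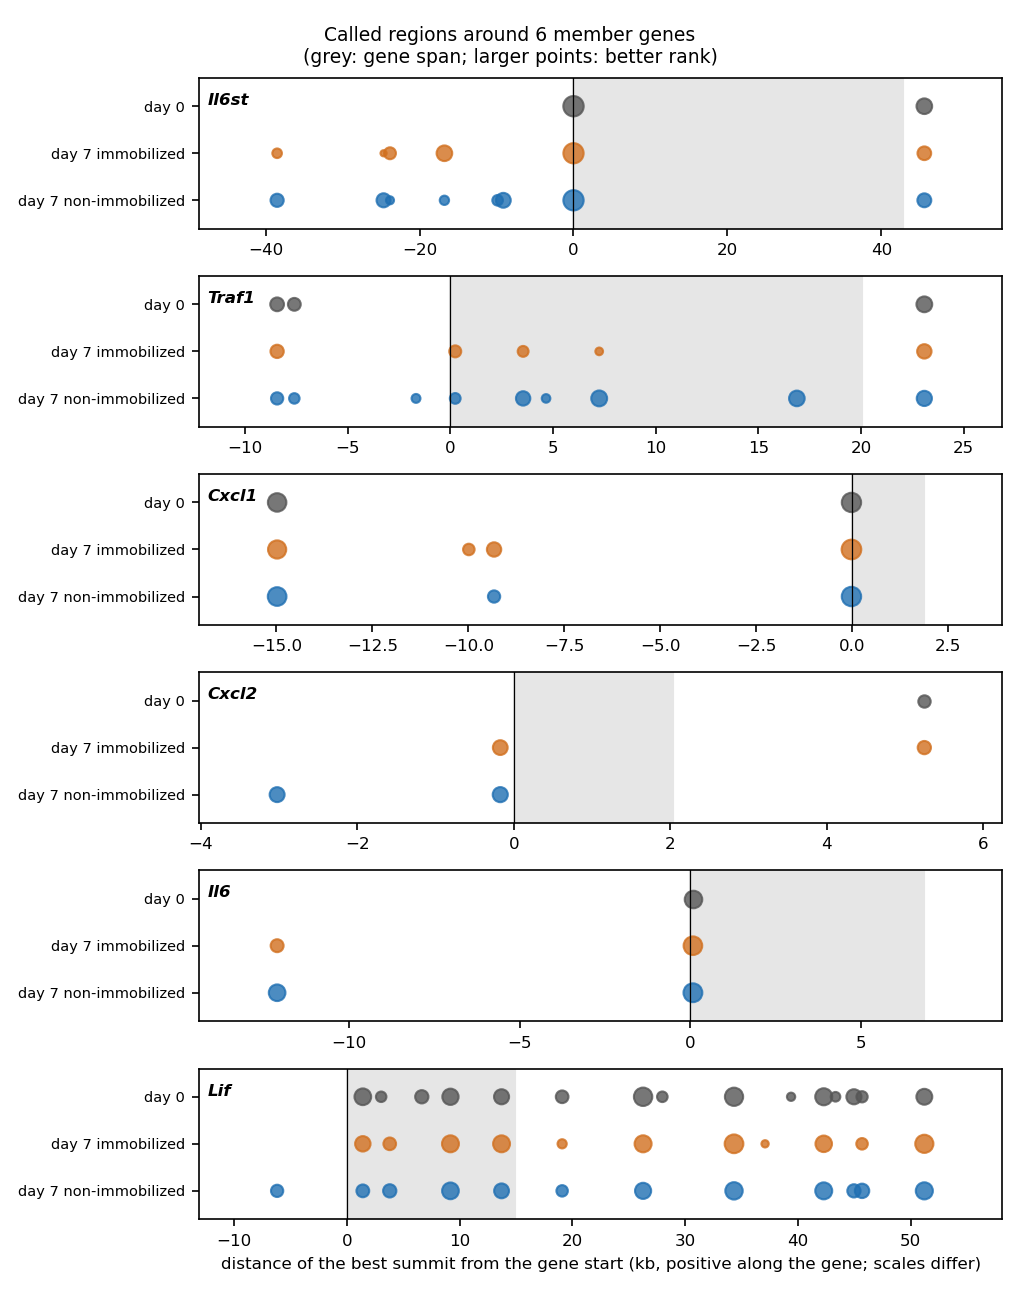
Regions of 6 genes placed by the distance of their best summit from the gene start (horizontal axis, kb, with a scale of its own in each panel), in rows for the 3 libraries. Larger points have better ranks and the grey band is the gene. Il6st has regions upstream of its start in the day 7 rows only, the nearest 9.11 kb away in the non-immobilized row, while its start has a large point in all 3 rows.

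Stat3 and Irf1 had strong start regions in all libraries. Stat3 (chr11:100886806-100939594) had 3, 5 and 5 regions, the start region at 2.78%, 5.07% and 3.22%. A region 26.7 kb inside the gene, at 51.0% and 44.8%, was in both day 7 libraries and absent from the whole day 0 list. Irf1, an interferon regulatory factor, had 9, 7 and 9 regions with 7 shared, and its promoter region ranked 6.88%, 8.61% and 6.10%.

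The SOCS genes held the strongest regions called at day 0 alone. Socs3 (chr11:117966079-117970336) had 14, 13 and 12 regions with 11 shared, a dense locus in all libraries. Its region 8.96 kb from the nearest gene end ranked 27.6% at day 0 and had no summit in either whole day 7 list. Socs1 (chr16:10783808-10785536) had 2, 2 and 2 regions with 1 shared. Its region 0.988 kb upstream of the start ranked 25.5% at day 0 and was likewise absent from both whole day 7 lists. No other region at day 0 alone ranked in the better 50%. The promoter windows of both genes were called in all libraries, at 11.6%, 17.1% and 11.6% for Socs1 and 11.7%, 17.3% and 17.6% for Socs3.

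The 6 cytokine receptor genes had 24, 31 and 36 regions, and Il6st differed most. Il6st, which encodes gp130 (chr13:112464070-112506860), had 2 regions at day 0, 6 in the immobilized and 8 in the non-immobilized library. The start region ranked 2.65%, 3.98% and 3.54%. All 6 further regions lay upstream of the start, from 9.11 to 38.5 kb away, and none had a summit in the whole deposited day 0 list. They ranked from 46.3% to 99.0% in the immobilized list (4 regions) and from 52.3% to 92.2% in the non-immobilized list (6 regions). The 2 called only in the equal-length non-immobilized list, at 9.11 and 9.85 kb, also had summits in the longer immobilized list as deposited. None of the 6 lay in the gene, so their assignment to Il6st rests on the nearest gene end alone. With the 23956 best summits of each list, Il6st had 1 region fewer in the non-immobilized library than at day 0.

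Il6ra, the interleukin 6 binding chain, had 3, 5 and 5 regions. A region 40.8 kb inside it ranked 28.8% in the immobilized and 76.4% in the non-immobilized library and was absent from the whole day 0 list. Il4ra had 6, 7 and 9, and 2 of its regions, 12.7 kb upstream and 28.5 kb downstream of the start, were in both day 7 libraries and absent from the day 0 list. Osmr, the oncostatin M receptor, had 5, 5 and 6. Its shared region 2.69 kb inside the gene ranked 71.6% at day 0, 41.4% in the immobilized and 26.7% in the non-immobilized library. The interferon gamma receptor genes Ifngr1 and Ifngr2 had 4, 4 and 4 regions each. The start region of Ifngr1 was one of the strongest, at 1.35%, 2.104% and 1.71%, and that of Ifngr2 ranked 9.61%, 9.72% and 10.05%.

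Among effectors, adhesion molecules and acute-phase genes, the 6 genes had 11, 14 and 12 regions. Icam1, an adhesion molecule for leukocytes (chr9:21015940-21028814), had 2, 3 and 3 regions. Its promoter region ranked 62.7% at day 0 and 23.1% and 28.5% in the day 7 libraries. The second shared region, 0.856 kb inside the gene, ranked 72.1%, 40.4% and 41.1%. Vcam1, which binds the integrin VLA-4 on leukocytes (chr3:116110020-116129688), had 4, 2 and 4 regions, and the one 0.157 kb from the gene end ranked 90.7%, 45.4% and 49.8%. Its other shared region, 4.63 kb inside the gene, ranked 96.7%, 71.4% and 91.3%, and the region 3.02 kb inside ranked 55.7% at day 0 and 80.9% in the non-immobilized library and was not called in the immobilized one. Both genes are also expressed by endothelium, and the 10 endothelial markers had 29, 35 and 63 regions; their part in these ranks was not tested. Ptgs2, which encodes cyclooxygenase 2, had 3, 5 and 2, with the promoter region at 47.4%, 23.6% and 40.5%.

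Lcn2 (lipocalin 2, an iron-scavenging acute-phase protein) had 0, 1 and 1 region, over the promoter, at ranks 69.5% and 81.0%, and no summit in the whole day 0 list. Complement C3 had 1, 2 and 1, the additional one lying over its promoter in the immobilized library at 88.2%. Saa3, a serum amyloid A gene, had 1, 1 and 1, shared at 66.0%, 62.4% and 70.6%. This region lay 0.178 kb beyond the end of the gene span where Saa3 starts. The promoter window of Saa3, taken from another start inside that span, had no region.

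Promoter windows were called in all 3 libraries for 26 of the 32 genes with a window (81.25%), against 54.4% of the 16456 genes. A further 4 were called in some libraries only: Cxcl2, Lcn2 and Traf1 in both day 7 libraries and C3 in the immobilized library. Lif and Saa3 had none. In 17 of the 26 genes (65.4%) the promoter region was in the best 20% of every list, against 66.5% of the 8936 genes with the same window called in all 3. Of the 119 regions not shared by all libraries, 7 (5.88%, exact 95% interval 2.40 to 11.7) lay within 1 kb of a gene end, against 38 of the 114 shared ones (33.3%, 24.8 to 42.8). Over all genes these shares were 12.6% and 42.5%. The unshared regions were also weaker, with a median rank of 70.2% against 25.2% in the library where each ranked best. Over all genes the medians were 71.8% and 24.2%. Weak regions drop below the end of another list more readily, so such a gap is partly set by the method. Inside a gene lay 80 of the 233 (34.3%), against 52.5% of all regions near genes.

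**Figure D3:**
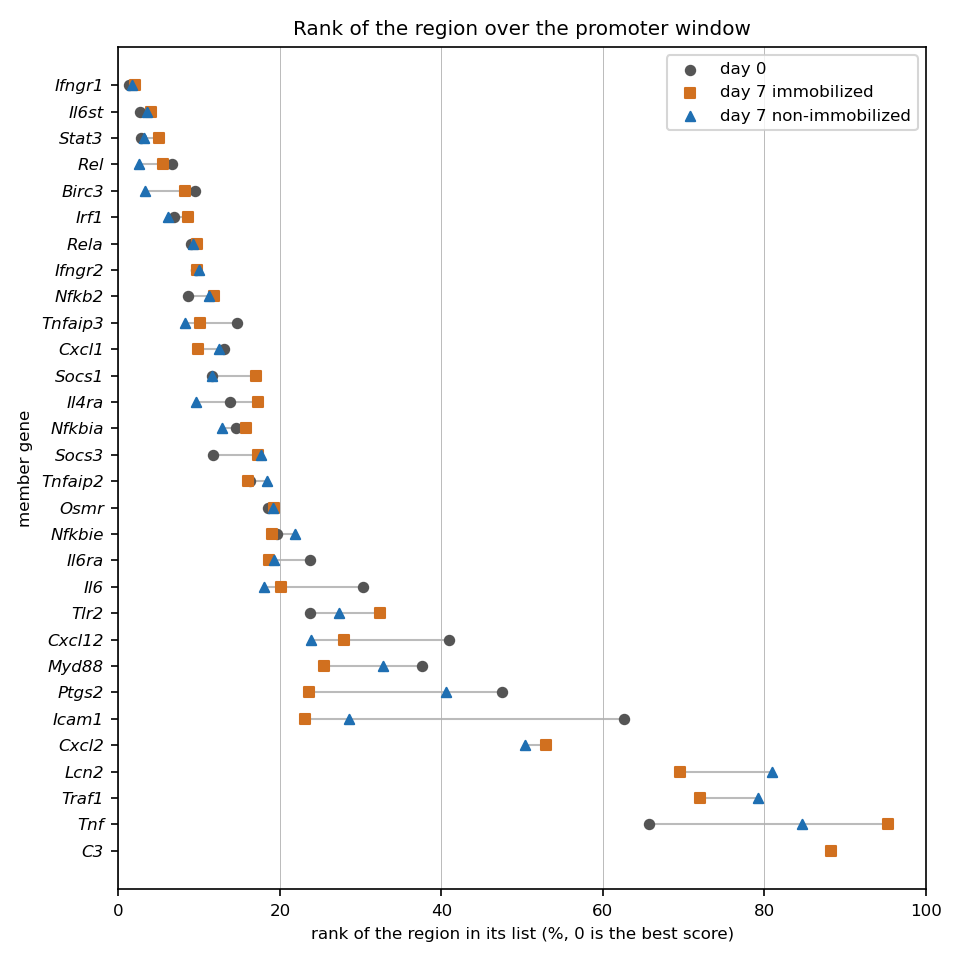
Rank of the region over the promoter window in each library (horizontal axis, percent of the list, 0% is the best score) for the 30 genes whose window was called in at least 1 library, ordered by mean rank; a missing symbol means that no region was called. Icam1 has the widest gap, from 62.7% at day 0 to 23.1% in the immobilized library, and Cxcl2, Lcn2, Traf1 and C3 have no day 0 symbol.

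The change from day 0 to day 7 without immobilization was read first. Of the 41 genes, 18 (43.9%) had more regions at day 7, against 25.4% of all 15122 genes with a region. More at day 0 were seen in 6 (14.6%), against 23.7%. A difference of at least 2 regions towards day 7 was seen in 7 genes (17.1%), where all genes gave 8.35%: Il6st and Traf1 (6 more each), Il4ra (3), and Il6ra, Nfkbiz, Stat3 and Tlr2 (2 each). In the other direction 3 genes (7.32%, all genes 7.43%) differed by at least 2: Nfkb1 (4 fewer at day 7), Lif (3) and Socs3 (2). Pooled, 49 regions were called at day 7 only and 27 at day 0 only, a share of 64.5% (exact 95% interval 52.7 to 75.1), against 51.9% of such regions near all genes. Of the 49, 47 had no summit in the whole day 0 list; the non-immobilized list was not shortened, so the 27 are absent from it by construction. The 41 genes had a mean of 4.88 regions in this pair and all genes 3.02. The interval counts regions as independent, though regions of a gene share a locus, and it covers counting error only.

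The immobilized day 7 library was read against the same day 0 library. Here 24 genes had more regions at day 7 (58.5%, all genes 26.7%) and 6 more at day 0 (14.6%, all genes 22.7%). The median difference was 1 region for the 41 genes and 0 for all genes. At least 2 more regions at day 7 were seen in 10 genes (24.4%, all genes 9.3%): Il6st (4), Ripk2 (3), and Cxcl1, Il6ra, Ptgs2, Stat3, Tlr2, Tlr4, Tnfaip3 and Traf1 (2 each). At least 2 more at day 0 were seen in 3 (7.32%, all genes 7.17%): Lif (4), Irf1 and Vcam1 (2 each). The pooled counts were 56 and 30, a share of 65.1% (54.1 to 75.1), against 53.4% near all genes. Only 8 of the 56 regions ranked in the better 50% of the immobilized list. With the 23956 best summits of each list the counts were 17 and 15, a share of 53.1% against 51.3% for all genes. Strong regions, those among the 23956 best summits with no summit in the other library's deposited list, numbered 8 and 4. Their share was 66.7%, below the 72.0% of all genes, and no gene had 2 more of them at day 7 (all genes 7.998%). With the equal-length lists and regions within 10 kb of a gene end, 2 genes had at least 2 more regions at day 7 (4.88%, all genes 4.09%). The 10 keratinocyte markers had 9 regions at day 0 and 43 in the immobilized library, whose part in these counts was not tested.

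These comparisons share the day 0 library, so a region missing there counts in both. That library also had the fewest aligned, non-duplicate read pairs, and the part of this in the counts was not tested. Regions called in both day 7 libraries and not at day 0 numbered 23 in 16 genes (9.87% of the 233, all genes 8.3%), led by Il6st with 4 and Traf1 with 3, and 22 of them were absent from the whole day 0 list. The exception was the Socs1 region 9.03 kb downstream of the start. Regions at day 0 alone numbered 20 in 13 genes (8.58%, all genes 12.2%), with 5 at Lif and 4 at Nfkb1, and 15 had no summit in either whole day 7 list.

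Between the day 7 libraries the pooled share was near that of all genes. Genes with a difference of at least 2 regions were more frequent than among all genes in both directions, but the 41 genes also had more regions per gene. The non-immobilized library alone had 36 regions and the immobilized library alone 40, a share of 47.4% (35.8 to 59.2), against 48.3% near all genes. More regions in the non-immobilized library were seen in 9 genes (22.0%, all genes 22%) and more in the immobilized library in 11 (26.8%, all genes 24%). At least 2 more in the non-immobilized library were seen in 6 genes (14.6%, all genes 6.07%): Traf1 (4), and Il4ra, Il6st, Irf1, Tnfaip2 and Vcam1 (2 each). At least 2 more in the immobilized library were seen in 6 others (14.6%, all genes 6.98%): Nfkb1 (4), Ptgs2 and Ripk2 (3 each), and Cxcl5, Tlr4 and Tnfaip3 (2 each). Of the 36 regions of the non-immobilized library, 16 were absent from the longer immobilized list as deposited; the non-immobilized list was not shortened, so the 40 regions of the immobilized library are absent from it by construction. In this pair the 41 genes had a mean of 5.20 regions and all genes 2.99. With the deposited lists the counts were 15 and 82, a share of 15.5% against 19.4% near all genes.

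**Figure D4:**
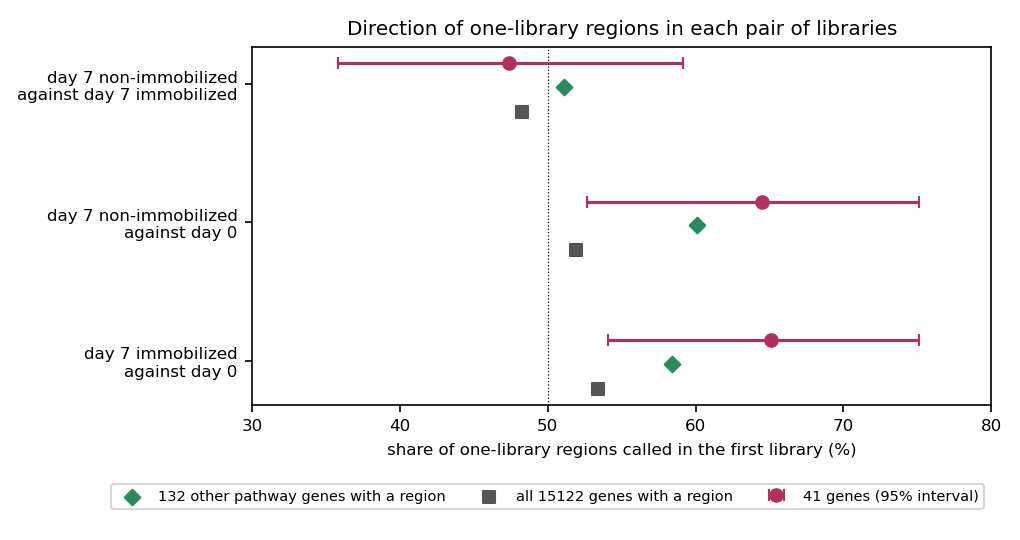
Share of the regions called in only 1 library of a pair that were called in the first-named library (horizontal axis, percent), for the 41 genes (red circles with exact 95% intervals), the 132 other pathway genes with a region (green diamonds) and all 15122 genes with a region (grey squares). Both comparisons with day 0 place the 41 genes at 64.5% and 65.1%, to the right of all genes at 51.9% and 53.4%, while the day 7 libraries give 47.4% against 48.3%.

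Where a region was shared by all libraries, rank shifts of at least 20 points had shares near those of all genes. The change in rank in percentage points was at least 20 towards a better rank at day 7 in 10 of the 114 shared regions for the non-immobilized library (8.77%, all genes 8.96%) and in 10 for the immobilized library (8.77%, all genes 8.73%). Better by 20 points or more at day 0 were 8 (7.02%, all genes 9.39%) and 10 (8.77%, all genes 9.31%). Between the day 7 libraries 5 regions were better in the non-immobilized (4.39%, all genes 6.42%) and 6 in the immobilized library (5.26%, all genes 6.27%). These shares are near those of all genes, so the ranks of Icam1, Vcam1, Osmr and Tnfaip3 given above are not a pattern of the 41 genes. At Icam1 both shared regions ranked at least 20 points better than at day 0 in both day 7 libraries. At Vcam1 and Ptgs2 both shared regions did so in the immobilized library. In the non-immobilized library, of these regions only the Vcam1 region 0.157 kb from the gene end did so, by 40.9 points. The largest gaps between the day 7 libraries were at Ptgs2, where the region 7.34 kb from the gene end ranked 32.0% in the immobilized and 81.8% in the non-immobilized library, and at Socs3, where the region 24.4 kb away ranked 76.6% and 29.1%. These 2 gaps were chosen after their values were seen.

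Other genes of these pathways were read from a list of 142 genes, of which 132 had a region. At least 2 more regions than at day 0 were seen in 25 of the 132 in the non-immobilized library (18.9%, all genes 8.35%). In the immobilized library it was also 25 (18.9%, all genes 9.3%). At least 2 fewer were seen in 9 (6.82%, all genes 7.43%) and 8 (6.06%, all genes 7.17%). Of their single-library regions, 119 were at day 7 and 79 at day 0 (60.1%) with the non-immobilized library, and 125 and 89 (58.4%) with the immobilized library. Between the day 7 libraries 9 genes (6.82%, all genes 6.07%) had at least 2 more regions in the non-immobilized library. In the immobilized library it was 7 (5.30%, all genes 6.98%), and the single-library regions numbered 94 and 90. The share in the non-immobilized library over day 0 was 70.6% for 44 NF-κB signalling genes (36 and 15 regions), 61.2% for 43 JAK-STAT genes (41 and 26) and 52.5% for 45 other cytokines and targets (42 and 38), against 51.9% near all genes. The shares of the immobilized library over day 0 did not have this order, at 57.7%, 59.4% and 58.1%, against 53.4% near all genes. Jak1, the kinase of gp130 receptors, had 4 regions in the non-immobilized library only, 0 at day 0 only and 5 in both. Map3k14, the kinase NIK of the non-canonical NF-κB pathway, had 4, 0 and 8, Map3k8 had 4, 0 and 3, and Cx3cl1 had 3, 0 and 2. Towards day 0 in this pair, Cxcl14, Cxcr4 and Ikbke had 3 regions each at day 0 only and none at day 7 only, and Ccl11 (eotaxin) had 2.

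In the immobilized library against day 0, Ptges, a prostaglandin E synthase, had 6 regions at day 7 only and 1 at day 0 only, and Ifnlr1, Il20rb and Irak2 had 4 and 0 each. Stat5b had 0 and 5, Socs2, a STAT5 target, 0 and 4, and Cxcr4 and Ikbke 0 and 3 each. Between the day 7 libraries, Map3k14 had 5 regions in the non-immobilized library alone and 1 in the immobilized library alone, Stat5b and Tab1 had 3 and 0 each, and Malt1 had 2 and 0. The reverse was seen at Cxcl14 (0 and 4) and at Osm, Ptpn6 and Tlr3 (0 and 3 each). Ifnlr1 and Il20rb are receptor genes known from epithelia. The keratinocyte markers had 9 regions at day 0 and 43 in the immobilized library, and the part of such cells in these counts was not tested.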

How the data were processed

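Summits, scores and run statistics were used as deposited. The submitters' processing notes name MACS2 2.1.2, Bowtie2 2.3.4.1, bedtools 2.28.0, SAMtools 1.2, Picard and the build mm10; the labels do not state read shifting, filters or the peak cutoff. The authors deposited 1 summit list per library. Its layout is that of a MACS2 summit file, so the deposited score was taken as −log10 of p or q (which is unstated) and served only for ranking inside 1 list. Per the file headers, the run statistics give read counts, the duplicate fraction and the alignment rate in percent (89.9 to 92.5%). 

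Shortening the lists to 47912 summits left out 3810 of the day 0 list and 19492 of the immobilized list. Each summit was given a window reaching 250 bp to either side, and windows that overlapped or adjoined formed 1 region. A region was called in a library that had a summit in it and was assigned to the protein-coding gene (RefSeq, GRCm38.p6) whose nearest end lay at most 50 kb from the best-ranked summit. Distances are signed by strand for genes in the promoter table. A gene was called when it had at least 2 more regions in 1 library. All 41 genes are named by rule; of the other genes, up to 4 per comparison and direction with the largest difference over the square root of the sum. The rank shift of 20 points and the best 20% of promoters were chosen after the values were seen. Genes and lists were chosen with earlier results of these data known. The script was tested on simulated data, where 100% of 5000 regions returned their pattern. The simulated regions lay too far apart for neighbours to merge, so the merging of close regions was not tested. Intervals are exact (Clopper-Pearson) and cover counting error only. The versions were scipy 1.17.1, pandas 2.3.3, numpy 2.4.6, matplotlib 3.10.9 and Python 3.11.15.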

Additional observations from a re-analysis of the deposited data

Results flagged for a closer look

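At 3 of the 41 genes the day 7 libraries lay on opposite sides of day 0. The difference was not tested, since each group is 1 library, and 1 or 2 regions decide each case. Tnfaip2 had -1 region relative to day 0 in the immobilized and 1 in the non-immobilized library. For Cxcl5 the differences were 1 and -1, and for Ptgs2 they were 2 and -1. The keratinocyte markers had 9, 43 and 11 regions at day 0, day 7 immobilized and day 7 non-immobilized, and the endothelial markers 29, 35 and 63; their part in these counts was not tested.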

How the results depend on the processing

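No paired analysis was possible because each group has 1 library. Values are shares of one-library regions in the first-named library, then numbers of genes with at least 2 more regions. For non-immobilized against day 0 the share stayed at 59.0% to 77.8% under the 9 alternatives and above that of all genes in each. The highest, 77.8%, came from strong regions, which numbered only 14 and 4, where all genes gave 61.6%. Strong regions are those among the 23956 best summits of a list, with no summit in the other library's deposited list. For immobilized against day 0 the share was 82.4% with the deposited lists (all genes 73.1%) and 53.1% with the 23956 best summits of each list (all genes 51.3%), and strong regions gave 66.7% against 72.0%, below all genes. For non-immobilized against immobilized it was 15.5% with the deposited lists (all genes 19.4%) and 59.3% with regions assigned to the gene that holds them (51.2%). Strong regions, only 2 and 5 in this pair, gave 28.6% (36.4%). The share of regions in all 3 libraries was 57.6% with the 23956 best summits (57.7%).

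Counts of genes with at least 2 more regions follow, with the share of all genes in parentheses. They were taken over 41 genes, but over 36 with the 23956 best summits, 28 with regions assigned to the gene that holds them, and the 7, 15 and 12 genes with a strong region in the 3 comparisons. For non-immobilized over immobilized, 6 became 0 with the deposited lists (0.986%), 3 with windows of 500 bp to either side (4.41%) and 0 with strong regions (0.566%). For immobilized over non-immobilized, 6 became 17 with the deposited lists (22.1%), 1 with the 23956 best summits (2.62%), 1 within 10 kb (2.70%), 0 by holding gene (5.26%) and 0 with strong regions (3.24%). For non-immobilized over day 0, 7 became 3 with the 23956 best summits (3.99%), 3 within 10 kb (3.76%), 2 by holding gene (7.16%) and 2 with strong regions (8.21%). For day 0 over non-immobilized, 3 became 1 with the 23956 best summits (3.41%), 1 within 10 kb (2.66%), 6 within 100 kb (8.77%), 0 by holding gene (6.65%) and 0 with strong regions (2.3004%). For immobilized over day 0, 10 became 20 with the deposited lists (21.5%), 3 with the 23956 best summits (3.50%), 2 within 10 kb (4.09%), 3 by holding gene (7.10%) and 0 with strong regions (7.998%). For day 0 over immobilized, 3 became 0 with the deposited lists (2.78%), within 10 kb (2.83%), by holding gene (7.15%) and with strong regions (0.707%).

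For each pair, 1 of the alternatives left out the gene with the most one-library regions, which cannot change the value of another gene. Its values below repeat the main ones by construction and count as the same direction. A gene without a region under an alternative gave no value there and was not counted as no difference. For single genes that differed by at least 2 regions, 184 of 282 alternative values still did so in the same direction. Another 56 differed by 1 region in that direction, 32 had no difference and 10 had the opposite sign. The latter were, for non-immobilized minus immobilized, Nfkb1 (1) and Il6st (-1) with the 23956 best summits and Irf1 (-1), Il6st (-1) and Il4ra (-2) with the deposited lists. For non-immobilized minus day 0 it was Il6st (-1), and for immobilized minus day 0 Traf1 (-1), Lif (1) and Vcam1 (1), all with the 23956 best summits, and Irf1 (1) with the deposited lists. The cause of these changes was not tested, and with 1 library per group the spread between replicates is unknown.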
